A study of Homo sapiens with 8 samples.

Results

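The genes described here are 10 genes of glutathione metabolism and of the NRF2 detoxification response, chosen by name from 20136 protein-coding genes. They are MGST1, MGST2, MGST3, GSTP1, GCLC, GCLM, NQO1, NFE2L2, HMOX1 and TXNRD1. MGST1 is also one of the genes that the study itself names, so its pattern here is a description of the same cells and no independent evidence. For each gene, the CUT&Tag peaks within 2 kb of its transcription start site (TSS), in its body and within 50 kb either side were read from 8 peak lists. HCT15 is an established human colorectal cancer cell line. Its parental form (HCT15-Pa) is labelled as given DMSO, and its 5-fluorouracil-resistant form (HCT15-FR) is labelled as given 5-FU at 20 μg/mL. According to the study's methods HCT15-FR cells were kept in that concentration and then moved to drug-free medium for some days before experiments, so resistance and past exposure to the drug cannot be told apart. HCT15-FR is a single line derived from HCT15. Each of 2 histone marks, succinylation of lysine 23 (H3K23su) and acetylation of lysine 27 (H3K27ac) of histone H3, was profiled in 2 libraries of each line, with no input or IgG library analysed here. The labels do not say that replicates were separate cultures, so all p-values measure only the spread between these libraries, which may be technical.

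Glutathione is a small thiol that cells use against oxidants and electrophiles. Glutathione transferases join it to such compounds, and the glutamate-cysteine ligase subunits GCLC and GCLM carry out the rate-limiting step of its synthesis. NRF2, the product of NFE2L2, is a transcription factor that KEAP1 holds at a low level in unstressed cells. On oxidative stress it pairs with small MAF proteins and binds antioxidant response elements (ARE) at genes such as NQO1, HMOX1, GCLM and TXNRD1. H3K27ac marks active promoters and enhancers, and succinylation is a larger, negatively charged acyl mark.

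The 8 lists held 65364 to 68365 H3K23su peaks and 70600 to 76676 H3K27ac peaks. HCT15-FR lists covered more of the genome, with 39.4 and 40 Mb of H3K23su against 33 and 33.5 Mb in HCT15-Pa, and 46.3 and 46.6 Mb of H3K27ac against 38.8 and 39.5 Mb. Read depth is not part of the lists, and a gene without a peak is a gene without a call above the caller's cutoff, not one without the mark. All 8 colon epithelial markers checked (EPCAM, CDH1, KRT8, KRT18, KRT20, VIL1, CDX1 and CDX2) had a peak near the TSS in some list of each mark. Only 5 of the 8 had one in all 4 lists for H3K23su and 6 for H3K27ac. For H3K23su 1 marker, and for H3K27ac 2, had peaks in both HCT15-FR lists and no HCT15-Pa list. PTPRC and CD3E (leukocytes), COL1A2 and COL3A1 (fibroblasts) and VWF (endothelium) had no peak near the TSS in any list of either mark.

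The sequences that the peaks at these genes bear on are given first, from the hg19 (GRCh37) reference, 5′ to 3′ on the strand of the gene. The ARE core was searched as TGACNNNGC and the overlapping AP-1 core as TGACTCA, both on either strand. An ARE core that reads TGACTCAGC therefore holds an AP-1 core as well. Capitals mark the ARE core, and each line shows 10 bases either side of it. They are shown because they lie in or beside peaks of genes whose products are textbook NRF2 targets, or, for MGST1, in the promoter that carried peaks in HCT15-Pa alone.
NQO1, -0.451 kb from the TSS, chr16:69760900-69760928, minus strand: gcagtcacagTGACTCAGCagaatctgag
GCLM, -0.03 kb, chr1:94375002-94375030, minus strand: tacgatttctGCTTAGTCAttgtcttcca
GSTP1, -0.062 kb, chr11:67351207-67351235, plus strand: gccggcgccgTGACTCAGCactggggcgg
GCLC, -3.15 kb, chr6:53413037-53413065, minus strand: cgcacaaagcGCTGAGTCAcggggaggcg
HMOX1, -9.07 kb, chr22:35768002-35768030, plus strand: tgtttttcctGCTGAGTCAcggtcccgag
HMOX1, -8.99 kb, chr22:35768089-35768117, plus strand: gtctgttttcGCTGAGTCAcggtctagag
TXNRD1, 71.2 kb downstream of the canonical TSS, chr12:104680698-104680726, plus strand: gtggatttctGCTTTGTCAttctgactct
MGST1, -0.496 kb, chr12:16500069-16500097, plus strand: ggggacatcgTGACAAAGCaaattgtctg

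At 4 places near these genes, both libraries of one line and neither of the other had a peak in both marks. The shared stretch of those peaks, or its central 300 bases, is given for 3 of them. None of these 3 windows overlaps an annotated exon or holds an ARE or AP-1 core, so all letters are lower case. The cores that the full MGST2 and NFE2L2 regions held lie outside the stretch that every peak covered, and so does the MGST1 core shown before.
MGST1, HCT15-Pa only, chr12:16500857-16501156, plus strand: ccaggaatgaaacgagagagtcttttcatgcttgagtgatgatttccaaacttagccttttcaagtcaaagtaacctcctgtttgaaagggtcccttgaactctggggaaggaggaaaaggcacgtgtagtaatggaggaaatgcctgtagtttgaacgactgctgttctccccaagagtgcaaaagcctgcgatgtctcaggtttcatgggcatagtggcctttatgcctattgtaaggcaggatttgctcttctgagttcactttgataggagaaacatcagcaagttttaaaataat
MGST2, HCT15-FR only, chr4:140598253-140598342, plus strand: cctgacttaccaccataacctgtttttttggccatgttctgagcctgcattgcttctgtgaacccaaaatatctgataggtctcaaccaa
NFE2L2, HCT15-FR only, chr2:178269836-178270122, minus strand: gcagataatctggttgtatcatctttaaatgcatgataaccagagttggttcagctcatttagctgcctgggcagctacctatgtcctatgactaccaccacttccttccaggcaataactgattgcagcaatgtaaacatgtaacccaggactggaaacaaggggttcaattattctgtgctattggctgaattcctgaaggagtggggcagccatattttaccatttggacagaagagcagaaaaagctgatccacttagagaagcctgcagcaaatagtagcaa

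MGST1, which encodes a membrane-bound glutathione transferase and peroxidase, was the member that separated the lines. Its TSS lies at chr12:16500579, and peaks there were listed in both HCT15-Pa libraries of each mark and in no HCT15-FR library. H3K23su peaks covered 1583 and 1846 bp within 2 kb of the TSS in HCT15-Pa replicates 1 and 2, and 0 bp in both HCT15-FR replicates. H3K27ac peaks covered 1724 and 1981 bp in HCT15-Pa and 0 bp in both HCT15-FR replicates. For H3K23su the scores of the HCT15-Pa peaks, taken as the -log10 P of the caller, were 6.16 and 5.01. They were above 86.9% and 69.3% of all peaks of their lists, promoter or not. For H3K27ac the scores were 5.71 and 6.89, above 72.7% and 80.5%. Whether depth or the caller's cutoff bears on the missing HCT15-FR peaks was not tested. Raw scores grow with depth, and the median score of all peaks was 4.35 and 4.36 in HCT15-Pa and 4.56 and 4.58 in HCT15-FR for H3K23su, and 4.33 and 4.37 against 4.74 and 4.73 for H3K27ac. Of all 20136 genes, 1.71% had an H3K23su promoter peak in both HCT15-Pa lists and neither HCT15-FR list, and 1.87% the reverse. For H3K27ac the shares were 2.19% and 1.42%. Among the 10 members, MGST1 was the only such gene in either mark, and 0 members showed the reverse.

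**Figure D1:**
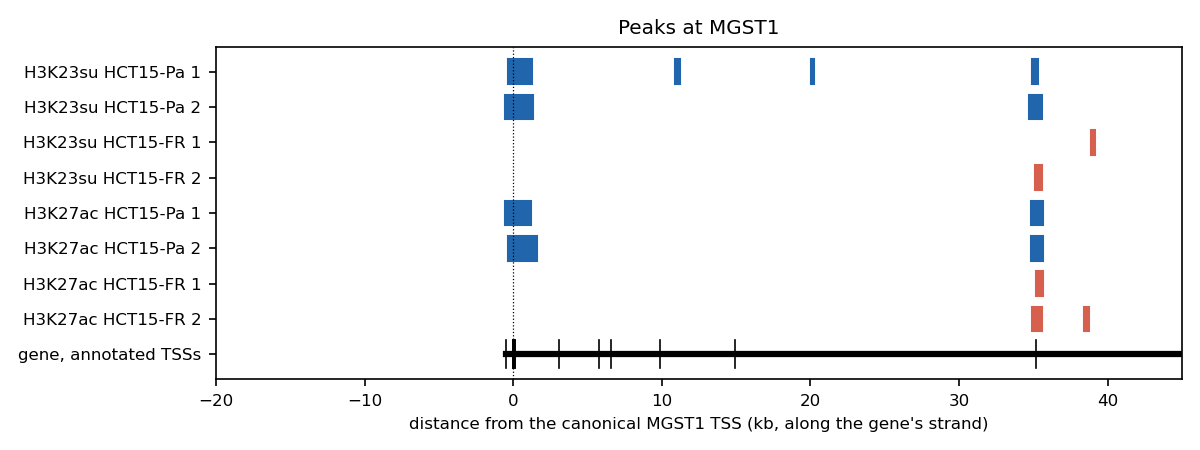
Peaks at MGST1 from 20 kb upstream to 45 kb downstream of the canonical TSS, in kb along the gene's strand. Each row is 1 library (blue, HCT15-Pa; red, HCT15-FR), each box is 1 peak, and ticks on the black gene line are annotated TSSs. The 4 HCT15-Pa rows carry a peak at the TSS and the 4 HCT15-FR rows do not, whereas at about 35 kb only HCT15-FR replicate 1 of H3K23su lacks a peak.

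A second place in MGST1, an annotated downstream TSS 35.2 kb into the gene, had peaks in 3 of 4 HCT15-FR libraries. There the H3K27ac scores were 8.3 and 8.1 in HCT15-Pa and 6.36 and 5.55 in HCT15-FR. The H3K23su scores were 6.89 and 6.05 in HCT15-Pa, with no peak in HCT15-FR replicate 1 and a score of 4.16 in replicate 2. So HCT15-Pa scores were the higher ones at this site in both marks, and peaks were present in both lines. With the TSS of any transcript in place of the canonical one, MGST1 therefore no longer counted as present in HCT15-Pa alone. Over the whole locus, MGST1 peaks covered 2606 ± 157 bp (SD, n = 2) of H3K23su in HCT15-Pa and 341 ± 100 bp in HCT15-FR, a ratio of 0.131. For H3K27ac they covered 2632.5 ± 218 bp and 730 ± 363 bp, a ratio of 0.277. The exact permutation test (two-sided) gave p = 0.33 for each, the smallest value that 2 libraries against 2 allow.

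The surroundings of MGST1 were read in the same way. Within 1000 kb either side of the gene, 11 of 53 H3K23su regions were shared by all 4 lists. Of these 53, 2 were in HCT15-FR alone and 1, the MGST1 promoter, in HCT15-Pa alone, against 7.95% and 5.01% across the genome. For H3K27ac, 11 of 40 regions were shared. There 6 were in HCT15-FR alone and 3 in HCT15-Pa alone, against 9.08% and 4.53% across the genome. Whether the MGST1 pattern belongs to a wider stretch was not tested. Promoters of the neighbours EPS8, STRAP and DERA had peaks in every list of both marks, and those of SLC15A5 and LMO3 had none in any list.

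MGST2 and MGST3 encode the other microsomal transferases. MGST2 acts also as a leukotriene C4 synthase. Both promoters (chr4:140586973 and chr1:165600471) had peaks in all 8 lists. At MGST2, H3K23su peaks covered 1457 and 1012 bp in HCT15-Pa and 860 and 980 bp in HCT15-FR, so the lines did not overlap and HCT15-FR was lower. H3K27ac peaks there covered 897 and 1135 bp in HCT15-Pa and 1453 and 1024 bp in HCT15-FR, and the lines overlapped. The score of the strongest H3K23su peak differed by -0.36 on the log2 scale between HCT15-FR and HCT15-Pa (SE 0.173, limma, adjusted p = 0.456), and that of H3K27ac by 0.16 (adjusted p = 0.704). Neither passed the threshold. In the introns of MGST2, HCT15-FR alone had 3 H3K23su regions, at 11.5, 23.5 and 45.7 kb from the TSS. The first of these is the one printed above, where H3K27ac was also called in HCT15-FR alone. Its scores were low, at 3.88 and 3.61 for H3K23su and 3.32 and 3.65 for H3K27ac, that is, above 26% and 14.5% of the peaks of the H3K23su lists and 8.97% and 21.5% of those of H3K27ac.

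At MGST3, promoter peaks were wide in both lines. H3K23su covered 2017 and 1899 bp in HCT15-Pa and 1936 and 1984 bp in HCT15-FR. H3K27ac covered 2007 and 2011 bp against 2067 and 2095 bp, which did not overlap but differed by 72 bp in the mean. In windows of 1 kb either side the order was reversed, with HCT15-FR lower. An internal MGST3 TSS region 14.6 kb downstream was shared by all lists of both marks. Its H3K27ac scores were 6.01 and 6.02 in HCT15-Pa and 14.5 and 12.2 in HCT15-FR, while its H3K23su scores were 6.03 and 8.29 against 6.27 and 5.22. Both HCT15-FR values were thus above both HCT15-Pa values for acetylation, and the lines overlapped for succinylation. This site was chosen after its values were seen and was not tested.

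GSTP1 encodes the pi-class transferase of the cytosol, which is known for its abundance in many tumours. Its promoter (chr11:67351283) holds the ARE core printed above, at -0.062 kb. H3K27ac scores there were 6.4 and 7.44 in HCT15-Pa and 10.6 and 12.4 in HCT15-FR, and the bases covered were 1333 and 1453 bp against 1453 and 1678 bp. Both HCT15-FR scores were above both HCT15-Pa scores. After quantile normalization the difference was 0.53 on the log2 scale (95% interval 0.16 to 0.91, unadjusted p = 0.0101, limma). It did not pass after adjustment over all genes (adjusted p = 0.144). This difference was 0.44 and 0.64 without HCT15-Pa replicates 1 and 2, and 0.65 and 0.40 without HCT15-FR replicates 1 and 2. H3K23su scores were 5.44 and 5.69 in HCT15-Pa and 6.93 and 7.77 in HCT15-FR, a normalized difference of 0.16 (adjusted p = 0.749). A region at -19.9 kb carried H3K23su in HCT15-FR alone, with scores of 4.34 and 4.06, and H3K27ac in all 4 lists, with scores of 4.59, 4.33, 5.26 and 7.11 in HCT15-Pa 1 and 2 and HCT15-FR 1 and 2. That H3K27ac region held 2 ARE cores and 2 AP-1 cores.

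**Figure D2:**
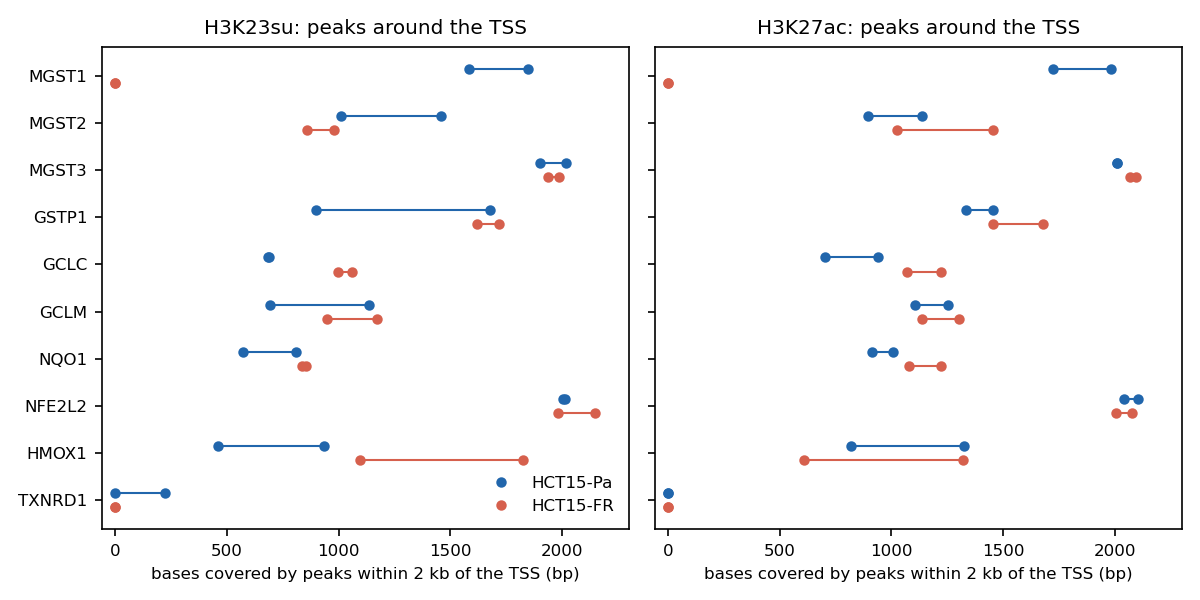
Bases covered by peaks within 2 kb of the canonical TSS (x axis, bp) for the 10 members, in H3K23su (left) and H3K27ac (right). Each point is 1 library and each line joins the 2 libraries of HCT15-Pa (blue) or HCT15-FR (red), and MGST1 is the row where both HCT15-FR libraries are at 0 and both HCT15-Pa libraries are above 1500 bp.

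GCLC and GCLM encode the catalytic and the modifier subunit of glutamate-cysteine ligase. At the GCLC TSS (chr6:53409899), H3K23su peaks covered 690 and 684 bp in HCT15-Pa and 998 and 1058 bp in HCT15-FR. H3K27ac peaks covered 942 and 701 bp against 1071 and 1220 bp. The lines did not overlap in either mark, with HCT15-FR longer. The raw scores did not overlap either, at 5.46 and 5.94 in HCT15-Pa and 6.44 and 6.03 in HCT15-FR for H3K23su, and 8.27 and 10.3 against 13.2 and 11 for H3K27ac. After quantile normalization the differences were -0.099 (adjusted p = 0.86) for H3K23su and 0.17 (adjusted p = 0.662) for H3K27ac on the log2 scale (limma). The ARE core printed above lies -3.15 kb from the TSS, inside an H3K27ac region with scores of 9.55 and 10.1 in HCT15-Pa and 9.46 and 9.35 in HCT15-FR. H3K23su was shared by the 4 lists beside it, with scores of 3.98, 4.14, 5.36 and 5.63, in a region that ends just short of that core. Far upstream, at -71.2 kb, where the annotated GCLC gene begins, H3K27ac scores were 15.8 and 13.3 in HCT15-Pa and 22.4 and 23.2 in HCT15-FR, against H3K23su scores of 4.54, 4.73, 4.31 and 4.06. That start also overlaps LINC01564, so its peaks cannot be assigned to GCLC alone.

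At the GCLM TSS (chr1:94374986) both marks were strong and both lines overlapped in length. H3K23su peaks covered 691 and 1137 bp in HCT15-Pa and 946 and 1172 bp in HCT15-FR, with scores of 10.3 and 7.74 against 11.4 and 8.69, above at least 94.2% of the peaks of their lists. H3K27ac peaks covered 1107 and 1252 bp against 1136 and 1304 bp, with scores of 11.1 and 10.2 against 10.6 and 6.48. The second HCT15-FR library held the lowest H3K27ac score. The normalized H3K27ac difference was -0.57 (95% interval -1.04 to -0.10, unadjusted p = 0.0226, limma) and did not pass after adjustment (adjusted p = 0.2). It was -0.88 (adjusted p = 0.0186) without HCT15-FR replicate 1 and -0.24 without HCT15-FR replicate 2, so 1 library decided it. For H3K23su the difference was -0.092 (adjusted p = 0.891).

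NQO1 encodes a quinone reductase that is a standard readout of NRF2 activity. Its ARE, printed above, lies at -0.451 kb, inside a region that all lists of both marks shared. NQO1 and NFE2L2 carried the highest H3K27ac promoter scores of the 10 genes. Those of NQO1 were 15.8 and 20.4 in HCT15-Pa and 20.6 and 23.1 in HCT15-FR, above at least 98% of the peaks of their lists. H3K27ac peaks covered 1009 and 911 bp against 1080 and 1221 bp, and H3K23su peaks 811 and 572 bp against 835 and 853 bp. The lines did not overlap in length in either mark, with HCT15-FR longer. The normalized scores differed by -0.017 for H3K27ac (95% interval -0.41 to 0.38, adjusted p = 0.972, limma) and by 0.0022 for H3K23su (-0.43 to 0.44, adjusted p = 0.999). A region 2.47 kb into NQO1 had H3K27ac in HCT15-FR alone, with scores of 6.45 and 4.65, while H3K23su there was listed in 3 libraries, HCT15-Pa replicate 1 among them.

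HMOX1 encodes heme oxygenase 1, which splits heme and releases iron, and BACH1 is known to repress it. At its TSS (chr22:35777089), H3K23su peaks covered 934 and 461 bp in HCT15-Pa and 1095 and 1824 bp in HCT15-FR, with scores of 4.45 and 3.95 against 7.56 and 5.65. The lines did not overlap in length or in score. The normalized score was higher by 0.44 on the log2 scale in HCT15-FR (95% interval 0.05 to 0.83, unadjusted p = 0.0298, limma), which did not pass after adjustment (adjusted p = 0.369). This difference was 0.24 without HCT15-FR replicate 1 and 0.63 without HCT15-FR replicate 2. It was 0.55 without HCT15-Pa replicate 1 and 0.35 without HCT15-Pa replicate 2. H3K27ac peaks covered 818 and 1323 bp against 608 and 1322 bp, and the normalized H3K27ac score differed by 0.33 (adjusted p = 0.323). Farther upstream, the region at -9.04 kb held 4 ARE cores, of which the first and the last are printed above. This region had H3K27ac in all 4 lists, with scores of 4.54 and 8.26 in HCT15-Pa and 5.94 and 7.04 in HCT15-FR. H3K23su was listed within it only in HCT15-FR replicate 1, with a score of 3.17, above 1.65% of the peaks of that list. Of the 46 shared H3K27ac regions at the members, 32 (69.6%) overlapped a shared H3K23su region, against 68.8% across the genome. The HMOX1 upstream region was not among the 32, and shared H3K27ac regions without such an overlap were about as frequent across the genome. At -16.7 kb, HMOX1 had H3K27ac in HCT15-FR alone, with scores of 4.98 and 6.01, and H3K23su in HCT15-FR replicate 1. At -30.2 kb the pattern was the other way about: H3K23su was in HCT15-FR alone, with scores of 6.2 and 4.52, and H3K27ac was in every list, with scores of 3.43, 5.85, 10.5 and 6.38.

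TXNRD1 encodes the cytosolic thioredoxin reductase, a selenoprotein. Its canonical TSS (chr12:104609557) lacked peaks, with 222 bp of H3K23su in HCT15-Pa replicate 2 and 0 bp in the other 7 lists. Peaks stood instead at a group of annotated internal TSSs about 71 kb downstream, where every list of both marks had one. At the TSS 71.2 kb downstream (chr12:104680768), H3K23su covered 724 and 966 bp in HCT15-Pa and 1002 and 1117 bp in HCT15-FR, and H3K27ac 3054 and 2537 bp against 3014 and 3016 bp. At that TSS H3K23su was longer in HCT15-FR and H3K27ac overlapped between the lines, but the order depended on the TSS taken. At 70.2 kb H3K23su covered 724 and 966 bp in HCT15-Pa and 707 and 682 bp in HCT15-FR. The H3K27ac scores of this region were 10.6 and 10.9 in HCT15-Pa and 12.9 and 14 in HCT15-FR, and the H3K23su scores 4.37 and 3.96 against 5.27 and 6.28.

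**Figure D3:**
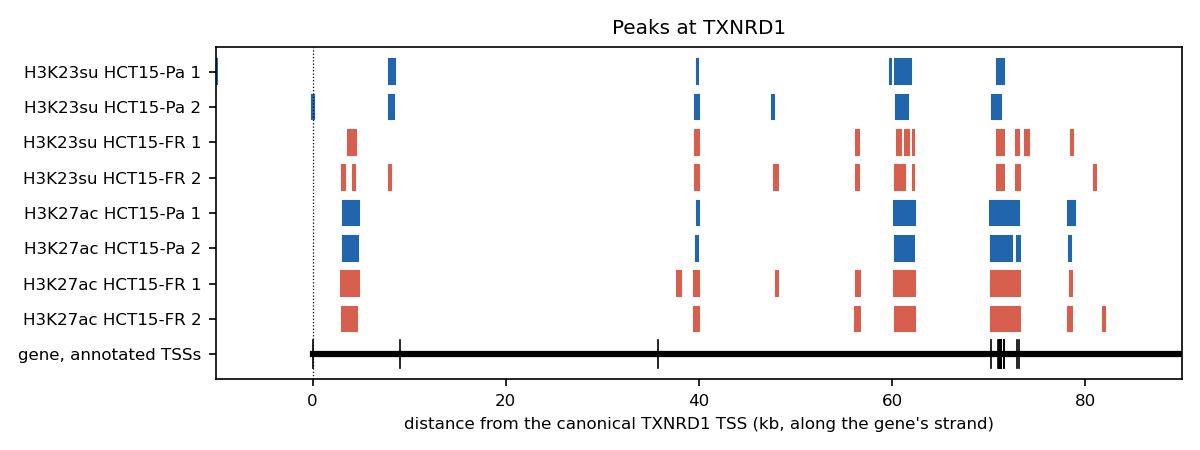
Peaks at TXNRD1 from 10 kb upstream to 90 kb downstream of the canonical TSS, in kb along the gene's strand. Each row is 1 library (blue, HCT15-Pa; red, HCT15-FR), each box is 1 peak and ticks on the gene line are annotated TSSs, and at 56.4 kb the 4 HCT15-FR rows carry a peak and the 4 HCT15-Pa rows do not.

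TXNRD1 held 5 H3K23su regions in HCT15-FR alone of 33, or 15.2%, against 7.95% of all regions across the genome. At the other members the share ran from 0% (MGST1, GCLM and NQO1) to 15.8% at MGST2 and 20% at MGST3. For H3K27ac TXNRD1 held 1 such region of 21, or 4.76%, against 9.08% across the genome. One of the 5 H3K23su regions, at 56.4 kb from the canonical TSS, had H3K27ac in HCT15-FR alone as well. Its H3K27ac scores were 7.25 and 7.6, above 75.8% and 78.1% of the peaks of their lists, and its H3K23su scores were 4.16 and 4.24, above 37.1% and 39.4%. Its H3K27ac region held 1 ARE core and 2 AP-1 cores toward its 3′ edge. At 4.09, 62.2 and 73 kb, H3K23su was in HCT15-FR alone while H3K27ac was shared by all 4 lists. At -27.9 kb, H3K23su was in HCT15-Pa alone, with scores of 4.39 and 4.64, and H3K27ac was not listed.

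NFE2L2, the gene of NRF2 itself, had a broad promoter peak (chr2:178129455) in every list. H3K23su covered 2003 and 2013 bp in HCT15-Pa and 1980 and 2145 bp in HCT15-FR, and H3K27ac 2039 and 2103 bp against 2005 and 2075 bp. H3K27ac scores were 18.3 and 18.3 against 20.4 and 19, and H3K23su scores 6.99 and 8.84 against 8.19 and 8.19. The lines overlapped in length in both marks. Normalized scores differed by -0.20 for H3K23su (95% interval -0.58 to 0.17, adjusted p = 0.695) and by -0.18 for H3K27ac (-0.53 to 0.16, adjusted p = 0.572, limma). In the long upstream part of the gene, H3K27ac was in HCT15-FR alone at -63.4 kb, with scores of 6.24 and 5.17, and at -73.5 kb, with scores of 5.34 and 6.44, and each of these regions held an AP-1 core. At 22.3 kb downstream H3K27ac was in HCT15-FR alone and at 21.4 kb in HCT15-Pa alone, with no H3K23su region at either. The region printed above, 11782 bp from the AGPS start and within AGPS, carried both marks in HCT15-FR alone.

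Across the 10 promoters, 8 genes had a peak in all 4 lists of each mark, and MGST1 and TXNRD1 were the others. For H3K23su, HCT15-FR covered more bases in both libraries than either HCT15-Pa library at 3 genes (GCLC, NQO1 and HMOX1) and fewer at 2 (MGST1 and MGST2). Of 13404 genes with a peak near the TSS in any list, 43.1% were higher and 8.36% lower by the same rule. For H3K27ac, 3 genes were higher (MGST3, GCLC and NQO1) and MGST1 was lower, against 31.4% and 12.8% of 14810 genes. In 1 kb windows MGST3 was among the lower genes instead. Of the members, 10 had an H3K23su peak and 9 an H3K27ac peak in any list, and counts this small are not read against those shares. The longer HCT15-FR peaks across the genome moved with these counts, and their part in them was not tested. GCLC and NQO1 were the members higher in both marks by this count. With the TSS of any transcript GCLC was no longer among those higher for H3K23su.

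**Figure D4:**
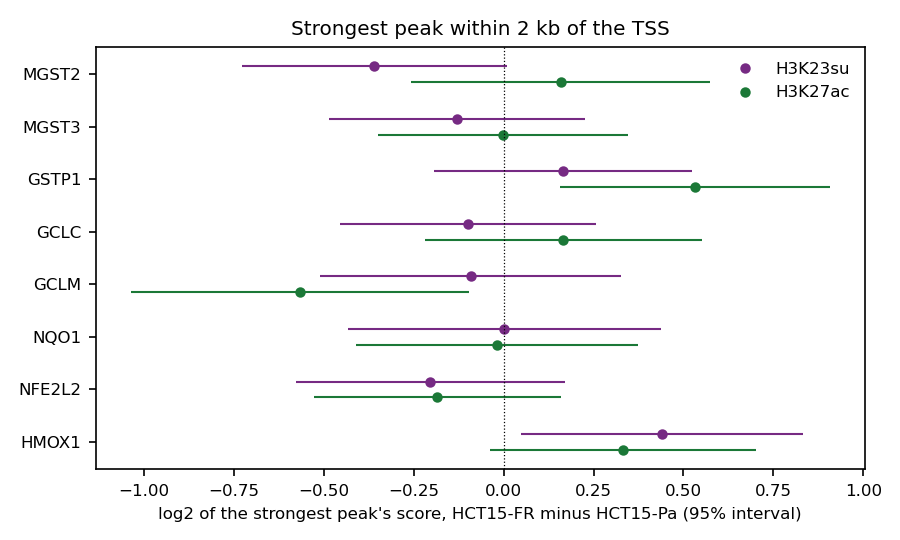
Difference in log2 score of the strongest peak within 2 kb of the TSS, HCT15-FR minus HCT15-Pa (x axis), for the 8 members with a peak in all 4 lists, with 95% limma intervals (purple, H3K23su; green, H3K27ac; 2 libraries a line). The intervals of GSTP1 and GCLM for H3K27ac and of HMOX1 for H3K23su leave out 0 before adjustment, and 0 members pass after it.

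The test of scores across all genes called 0 of the 8 members it could fit in each mark. It called 10 genes higher and 6 lower of 11009 for H3K23su (0.0908% and 0.0545%) and 82 and 56 of 11886 for H3K27ac (0.69% and 0.471%). Before adjustment, 614 genes were higher and 632 lower for H3K23su at p under 0.05, HMOX1 among them, and 1084 and 1063 for H3K27ac, with GSTP1 among the first and GCLM among the second. The median difference of the members was -0.0953 for H3K23su and 0.078 for H3K27ac, against 0.0033 and -0.000235 over all genes fitted. MGST1 and TXNRD1 were not in these fits, since they lacked a peak in some list. Another fit set missing scores to the lowest score of the list. In it the MGST1 difference was -0.98 for H3K23su (limma, adjusted p = 0.0745) and -1.17 for H3K27ac (limma, adjusted p = 0.0426). The HCT15-FR scores of MGST1 are filled in there, so that fit restates the missing peaks. With the TSS of any transcript the MGST1 H3K27ac difference was -0.66 (limma, adjusted p = 0.0642).

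Over gene bodies and 50 kb either side, peaks of the 4 lists of a mark were merged into regions. The members' loci held 157 H3K23su regions, of which 35 were in all 4 lists, 15 (9.55%) in both HCT15-FR lists and no HCT15-Pa list, and 4 (2.55%) the reverse. Across the genome the last 2 classes made up 7.95% and 5.01% of 122500 regions. For H3K27ac the loci held 150 regions, 46 in all 4 lists, 12 (8%) in HCT15-FR alone and 4 (2.67%) in HCT15-Pa alone, against 9.08% and 4.53% of 133786. The regions in HCT15-FR alone lay in gene bodies (9 H3K23su and 6 H3K27ac) or flanks (6 and 6). Of them, 0 lay within 2 kb of the member's own canonical TSS. Of all 20136 genes, only 1.87% for H3K23su and 1.42% for H3K27ac had a promoter peak in HCT15-FR alone. No split by zone is given for all regions, so these counts by zone are not read as a trait of the members. Other TSSs of the members and TSSs of other genes were not considered. A region by such a TSS, as by those 72939 and 73116 bp into TXNRD1, counts as gene body or flank. Within 2 kb of the members' canonical TSSs, 8 of 13 H3K23su regions and 8 of 10 H3K27ac regions were shared, and 1 in each mark, MGST1, was in HCT15-Pa alone. The excess of HCT15-FR regions for H3K23su, 11 regions, was -7 and -4 without HCT15-Pa replicates 1 and 2 and -3 with the stronger 50% of each list, and that for H3K27ac, 8 regions, was 0 and -1 without the same HCT15-Pa replicates. Leaving out a HCT15-Pa library makes a region in HCT15-Pa alone need 1 list and one in HCT15-FR alone still 2, so those values fall by construction. With the stronger 50% of each list the excess for H3K27ac was 6.

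**Figure D5:**
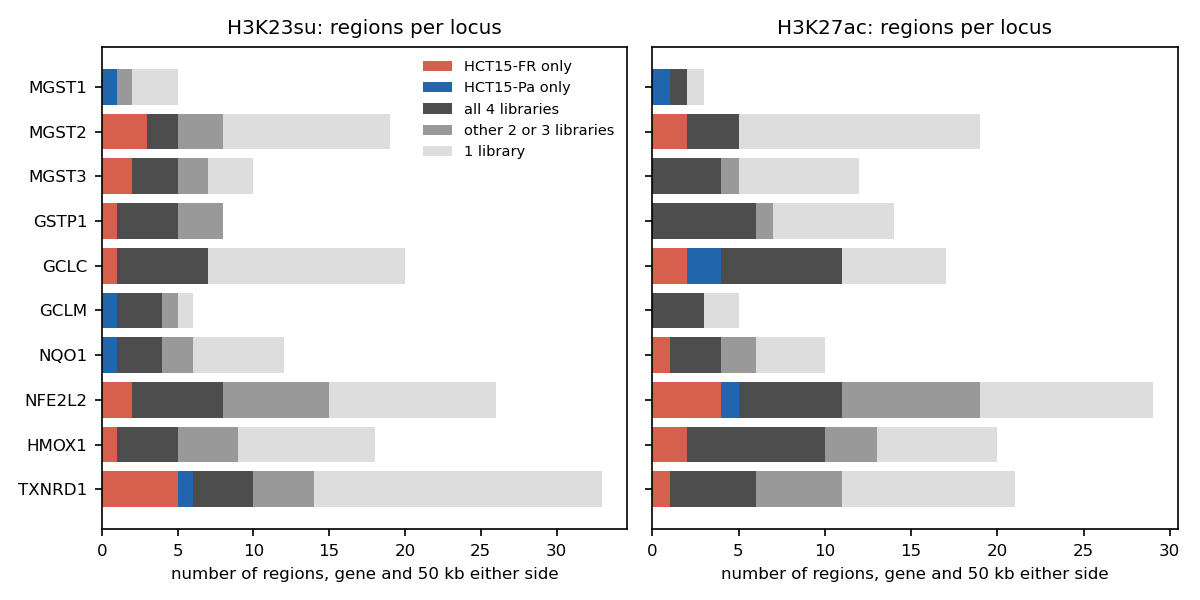
Number of merged regions (x axis) over each member's body and 50 kb either side, for H3K23su (left) and H3K27ac (right), split by the libraries that hold them. TXNRD1 has the most H3K23su regions in HCT15-FR alone (5), and MGST1 has the fewest regions in both marks (5 and 3).

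Of the regions found in exactly 3 of 4 lists, HCT15-Pa replicate 2 was the missing list for 8 of 17 at the members for H3K23su and 7 of 13 for H3K27ac, against 32.2% and 31.9% of such regions across the genome. Summed over the members' loci, peaks covered 45839 and 44089 bp of H3K23su in HCT15-Pa and 52530 and 48066 bp in HCT15-FR. For H3K27ac they covered 56604 and 53629 bp against 64016 and 62643 bp. The HCT15-FR sums were the longer ones in both marks, with ratios of the means of 1.12 and 1.15 (exact permutation test, p = 0.33 each, the smallest possible), and over the whole genome the ratio was 1.19 in both marks. GSTP1 had the highest ratio for H3K23su (1.63) and MGST2 for H3K27ac (1.68), and GCLM was below 1 in both marks (0.834 and 0.885).

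The marks were compared at the same places. Of the 15 H3K23su regions in HCT15-FR alone, 3 overlapped an H3K27ac region of the same class, 6 a shared one and 2 none. Across the genome the shares were 35.8%, 17.1% and 17.5%. Of the 4 H3K23su regions in HCT15-Pa alone, the MGST1 promoter overlapped an H3K27ac region of the same class, and 19.8% did so across the genome. H3K27ac was shared by all lists at 31 of the 35 places where H3K23su was, and at 80.3% of them across the genome.

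ARE cores were found in 36 of 81 H3K23su regions at the members that at least 2 lists held, or 44.4%, against 31.9% of all such regions. For H3K27ac they were in 35 of 82, or 42.7%, against 32.6%. The members' regions were wider, with medians of 776 and 852 bp against 733 and 741 bp, and within 200 bp of the midpoint the shares were 21% against 18.3% and 23.2% against 18.8%. AP-1 cores were in 22.2% and 25.6% of the members' regions against 24.1% and 26% of all. In the window from 250 bases before to 50 after the TSS, the ARE core was found in GSTP1, GCLM and TXNRD1 and in 14% of all promoters, and the AP-1 core in GSTP1 and in 3.58% of all. These are matches of letters and not bound sites.

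Of 66 other genes of the pathway in fixed lists, 59 had an H3K23su peak near the TSS and 62 an H3K27ac peak. Of those with a peak, 31 of 59 were higher in covered length in HCT15-FR and 5 lower without overlap for H3K23su, against 43.1% and 8.36% of all genes with a peak. For H3K27ac 15 of 62 were higher and 18 lower, against 31.4% and 12.8%. The scores of these genes did not lean the same way for H3K23su. Of 53 that limma could fit, 26 had a higher normalized score in HCT15-FR, with a median log2 difference of -0.00652. For H3K27ac 33 of 56 had a higher score, with a median of 0.0488. The counts by list below are also of covered length, over genes with a peak in any list of the mark. The NRF2 regulators and partners, 9 genes that include KEAP1, BACH1 and the small MAF genes, were higher for H3K23su at 8 and lower at 0, and for H3K27ac at 4 and 1. The glutathione synthesis and recycling genes were higher for H3K23su at 6 of 11 and lower at 0, and for H3K27ac at 2 and 2 of 12. The glutathione transferases of the list were higher at 2 of 9 and lower at 1 for H3K23su, and at 1 and 3 of 8 for H3K27ac. The thioredoxin and peroxiredoxin genes were higher at 3 of 10 and lower at 1 for H3K23su, and at 2 and 4 for H3K27ac. The NADPH supply genes were higher at 3 of 6 and lower at 0 for H3K23su, and at 1 and 3 for H3K27ac. The heme and iron genes were higher at 5 of 6 and lower at 1 for H3K23su, and at 3 and 1 for H3K27ac. The reductases and other detoxification genes were higher at 4 of 8 and lower at 2 for H3K23su, and at 2 and 4 of 11 for H3K27ac.

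Of the 66 pathway genes, 1 had an H3K23su promoter peak in HCT15-Pa alone and 1 in HCT15-FR alone. The shares of all genes were 1.71% and 1.87%. For H3K27ac the counts were 3 and 0, against 2.19% and 1.42% of all genes. The genes named here were picked for such a pattern or for a limma call. Among the reductases, AKR1C1 had peaks in HCT15-Pa alone in both marks, as MGST1 did. AKR1C1, whose enzyme reduces steroids and reactive carbonyls, had H3K23su over 608 and 265 bp and H3K27ac over 612 and 404 bp in HCT15-Pa, and 0 bp in HCT15-FR. AKR1C2 and AKR1C3, close relatives of it, had H3K27ac over 146 and 558 bp and over 178 and 601 bp in HCT15-Pa, 0 bp in HCT15-FR, and no H3K23su peak in any list. Only uniquely mapped reads were kept, and the AKR1C genes are near-identical copies, so the calls at single genes of the cluster are uncertain. AKR1B10, a related reductase of retinal and aliphatic aldehydes, had H3K27ac scores of 8.84 and 8.11 in HCT15-Pa and 4.79 and 5.21 in HCT15-FR. It was the 1 pathway gene that limma called, with a difference of -0.92 on the log2 scale (SE 0.16, adjusted p = 0.029). The call was lost without either HCT15-Pa H3K27ac replicate, where limma called 0 genes in all, with 903 and 886 genes higher and 899 and 842 lower at an unadjusted p under 0.05. In the fit of all 4 libraries the AKR1B10 H3K23su score differed by -0.16 (limma, adjusted p = 0.762). PRDX5, a peroxiredoxin, had the reverse pattern for H3K23su, over 0 and 0 bp in HCT15-Pa and 324 and 672 bp in HCT15-FR, with H3K27ac in every list.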

How the data were processed

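CUT&Tag peak lists of H3K23su and H3K27ac in HCT15-Pa and HCT15-FR (2 libraries each, 8 in all) were used as deposited. Per the study's methods, the authors mapped reads to hg19 by Bowtie2, used SAMtools to retain unique, correctly paired alignments without duplicates, and called peaks in each library with MACS2, in broad mode for H3K27ac. The deposited lists have no header, and the score of a peak was taken as its −log10 P value from the study's supplement and the range of the values. Such a score grows with depth, and read counts and depth are not given in the lists. A missing peak can therefore reflect depth. Groups were taken from the sample labels.

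The members and gene lists were chosen with earlier results of these data known. All 10 members are named, and of 66 listed pathway genes those with a promoter peak in 1 line alone or a call. TSSs are those of Ensembl canonical transcripts of GENCODE release 44 mapped to GRCh37. A region is the union of overlapping or touching peaks across the 4 lists of a mark. Score tests used limma 3.58.1 in R 4.3.3 on quantile-normalized log2 scores of the strongest peak within 2 kb of the TSS, for genes with a peak in all 4 lists, with Benjamini-Hochberg adjustment over all genes and a threshold of 0.05. Covered length was compared by the exact permutation test. Sequences and motifs were read from hg19 with pysam 0.24.0. Scripts ran in Python 3.11.15 and were tested on simulated data. Of 15 cell type markers, 14 were matched to the annotation. One marker and one sequence are not reported here. Alternatives covered the score scaling, the filter, the TSS, the window, the list length, the merging distance, the replicate block and each library left out.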

Additional observations from a re-analysis of the deposited data

How the results depend on the processing

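The result that MGST1 alone had promoter peaks in HCT15-Pa only kept its count of 1 in each mark with 1 kb windows, with the stronger 50% of each list and with each library left out, except that the count was 2 for H3K23su without HCT15-Pa replicate 1 (range 1 to 2), and it was 0 in both marks with the TSS of any transcript. The excess of HCT15-FR regions at the members' loci was -3 for H3K23su with the stronger 50% of each list and ranged from -7 to 29 with 1 library left out, and from -1 to 30 for H3K27ac, since the line with a library left out then needs 1 list and the other line 2. Promoters longer in HCT15-FR numbered 3 to 6 for H3K23su and 3 to 6 for H3K27ac with 1 library left out, and 4 and 5 with the TSS of any transcript. In that last setting MGST3, NQO1, NFE2L2 and HMOX1 were longer for H3K23su, and MGST1, MGST2 and TXNRD1 shorter. For H3K27ac MGST3, GCLC, NQO1, NFE2L2 and TXNRD1 were longer there, and MGST1 shorter. Promoters shorter in HCT15-FR numbered 1 for H3K23su and 2 for H3K27ac in 1 kb windows, and 1 to 3 for H3K27ac with 1 library left out. The 2 for H3K27ac in 1 kb windows were MGST1 and MGST3, and MGST3 was longer in HCT15-FR in 2 kb windows. The number of genes called by limma, 16 for H3K23su, was 42 with median scaling, 58 with no filter and 10 to 102 with 1 library left out. For H3K27ac, 138 became 258 with the TSS of any transcript and 0 to 407 with 1 library left out, and without either HCT15-Pa replicate, where limma called 0 genes, 903 and 886 genes were higher and 899 and 842 lower at an unadjusted p under 0.05. Member scores that changed sign were not called in any fit. With 1 library left out, H3K23su differences ranged from -0.30 to 0.12 for GCLM and from -0.32 to 0.34 for NQO1, and H3K27ac differences from -0.046 to 0.37 for MGST2, from -0.068 to 0.063 for MGST3 and from -0.20 to 0.17 for NQO1. With median scaling the H3K27ac difference was 0.019 for MGST3 and 0.072 for NQO1, and with the TSS of any transcript it was 0.12 for MGST3. Within 200 bp of the region midpoint, ARE cores were in 21% of H3K23su and 23.2% of H3K27ac regions of the members, against 18.3% and 18.8% of all. AP-1 cores were there in 11.1% and 14.6%, against 14.9% and 17% of all. These shares fall with the shorter window. The cause of the other shifts was not tested.

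Replicate numbers did not pair the libraries: the deviations of same-numbered libraries correlated at 0.00955 for H3K23su and -0.00778 for H3K27ac across genes. With the replicate number as a block, limma called 0 genes for H3K23su (588 higher and 620 lower at an unadjusted p under 0.05) and 669 for H3K27ac, the excess of HCT15-FR regions was 10.5 and 18.5, and the covered length had a sign-flip p of 0.5, the smallest possible in an exact test. No member's call changed under the block.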
